A study of Homo sapiens with 51 samples.

Results

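Vimentin (VIM) and 7 genes of the actin-based contractile apparatus (TAGLN, ACTA2, CNN1, CALD1, TPM1, TPM2 and MYL9) were followed across a series on the mesenchymal state of human mammary epithelial cells. They were taken by symbol from a deposited expression table of 24033 gene symbols, and all 8 were found. HMLE is an immortalised line of human mammary epithelial cells, labelled wild type, and HMLE-TWIST1 is the same line overexpressing TWIST1, a transcription factor that drives epithelial to mesenchymal transition. Total RNA was sequenced in 51 libraries, 3 in each of 17 groups. In the drug experiment HMLE-TWIST1 was treated with chaetocin, a fungal product that inhibits the H3 lysine 9 methyltransferases SUV39H1 and SUV39H2, at 100, 150, 200 or 500 nM for 48 h, and both lines received DMSO, the solvent, for the same time (day 2). A washout group of HMLE-TWIST1 had 80 nM chaetocin for 15 h and then 48 h in fresh medium, beside DMSO cells of both lines handled in the same way (day 4). In the duplex experiment both lines received DsiRNA, a small interfering duplex, targeting both SUV39H1 and SUV39H2, or a scramble control duplex, and were harvested after 48 h (day 2) or after a further 48 h in fresh medium (day 4). HMLE was not given chaetocin in the libraries used here. The labels do not say that replicates were separate cultures or how many clones HMLE-TWIST1 holds, so p-values measure the spread between these libraries, which may be technical.

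Vimentin is the intermediate filament protein typical of mesenchymal cells, and its gain is a standard mark of epithelial to mesenchymal transition. The other genes act on actin filaments. ACTA2 encodes smooth muscle alpha actin, MYL9 a regulatory light chain of non-muscle and smooth muscle myosin, and TPM1 and TPM2 tropomyosins, which lie along the filament and govern access of myosin. CALD1 (caldesmon), CNN1 (calponin) and TAGLN (transgelin, a calponin relative) bind actin and restrain or tune contraction. Many contractile genes are controlled by serum response factor (SRF), which binds the CArG box, and its actin-sensing cofactors MKL1 and MKL2 (MRTF-A and MRTF-B). Myoepithelial cells of the breast and activated fibroblasts both use parts of this programme.

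The 250 bases upstream of the annotated start are shown for ACTA2, which alone held 2 copies of the motif searched for the SRF site, and for CNN1, a smooth muscle gene that stayed near 0 reads and held none. They are RefSeq sequences of build GRCh38.p14, read 5′ to 3′ on the gene's strand. Capitals mark either a CArG-like match or an E-box. ACTA2 lies at chr10:88952774-88953023 (minus strand, the second of 2 annotated starts) and CNN1 at chr19:11538601-11538850 (plus strand).
ACTA2: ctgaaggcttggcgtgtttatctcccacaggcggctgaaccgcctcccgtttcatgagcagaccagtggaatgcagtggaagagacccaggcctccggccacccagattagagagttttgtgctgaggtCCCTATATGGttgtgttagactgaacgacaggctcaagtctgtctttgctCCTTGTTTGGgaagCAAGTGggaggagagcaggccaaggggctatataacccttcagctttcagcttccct
CNN1: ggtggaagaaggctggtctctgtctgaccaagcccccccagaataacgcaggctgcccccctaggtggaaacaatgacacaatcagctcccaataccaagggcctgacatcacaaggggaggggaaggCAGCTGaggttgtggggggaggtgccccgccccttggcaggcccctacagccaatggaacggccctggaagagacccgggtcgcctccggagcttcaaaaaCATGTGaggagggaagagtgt
The strict CArG box was searched by its name, as CC, then 6 bases that are A or T, then GG. The CArG-like form allows 1 base other than A or T among those 6, and the E-box, the motif class bound by TWIST1 and related factors, was searched as CANNTG. Each was sought on both strands, and the strict box is a case of the CArG-like form. Windows were found for 6 of the 8 genes, 11 windows in all. The table held none for TAGLN or MYL9. No strict CArG box was in these windows, against 1.16% of all 35116 windows of the same length in the table. ACTA2 held the CArG-like matches CCCTATATGG, 121 to 112 bases before the start, and CCTTGTTTGG, 71 to 62 bases before it. At least 2 such matches were in 0.587% of all windows and at least 1 in 7.04%. CALD1 held 1 CArG-like match, CCTAAAGAGG, in 1 of its 4 windows. E-boxes were in windows of ACTA2, CNN1 and TPM2, a motif that 61.8% of all windows held, and VIM and TPM1 held neither motif. These matches describe letters, not bound sites.

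Libraries held 7897060 to 15662385 reads in listed genes. Levels are given in CPM, reads scaled to library size, and differences as log2 fold changes ± SE from limma with n = 3 libraries per group, where p-values were adjusted across every tested gene by the Benjamini-Hochberg method, with a threshold of 0.05. TWIST1 averaged 5.10 to 14.0 CPM in the HMLE groups and 234 to 609 CPM in the HMLE-TWIST1 groups. The knockdown targets averaged lower in every knockdown group than in its scramble group. SUV39H1 averaged 4.57 CPM against 9.42, and SUV39H2 24.6 against 42.7, in HMLE-TWIST1 at day 4. In HMLE at day 4 SUV39H1 averaged 1.81 CPM against 3.41, with overlapping libraries, and SUV39H2 4.82 against 6.85. At day 2 SUV39H1 averaged 4.70 CPM against 12.65 in HMLE-TWIST1 and 2.56 against 6.47 in HMLE. SUV39H2 then averaged 19.9 CPM against 45.55 in HMLE-TWIST1 and 6.60 against 8.84 in HMLE. Summed markers of mammary basal cells were at 5250 to 12400 CPM in HMLE and 20.9 to 37.8 CPM in HMLE-TWIST1, where KRT17 was at 0 reads in DMSO at day 2. Summed markers of mammary luminal cells were at 902 to 1210 CPM in HMLE and 67.4 to 269 CPM in HMLE-TWIST1. Of the 7 fibroblast markers all were detected in HMLE-TWIST1, with a sum of 7260 to 9320 CPM in DMSO at day 2. In HMLE in DMSO at day 2, 6 of the 7 had at least 10 reads in the group, with a sum of 72.2 to 182 CPM. Among 6 smooth muscle or pericyte markers the sum stayed between 8.10 and 53.7 CPM in every library, and MYH11, the smooth muscle myosin heavy chain, averaged 0.902 CPM in HMLE-TWIST1 and 0.965 CPM in HMLE in DMSO at day 2. LMOD1 (leiomodin) held the most of that sum in HMLE-TWIST1, at 22.5 CPM against 1.44 CPM in HMLE (log2 difference 3.84 ± 0.57, adjusted p = 3.3e-05). Markers of endothelial cells and leukocytes summed to at most 10.4 and 9.66 CPM. Over the 22 comparisons the median of all genes was -0.02 to 0.05 with the trimmed mean and -0.12 to 0.38 with scaling to total reads, which moved the share of calls that were higher from 42.6 to 57.3% to 30.8 to 74%, by over 10 points in 13 of 22 comparisons. In bulk RNA, fewer cells that express a gene and less of its RNA per cell cannot be told apart.

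Per length, VIM led in HMLE-TWIST1 and was near the bottom in HMLE. On the deposited RPKM scale, reads scaled to gene length and library size, which includes an offset of about 2 reads, the order of mean levels in HMLE-TWIST1 with DMSO at day 2 was VIM (487), MYL9 (189), CALD1 (172), TPM2 (50.9), ACTA2 (40.4), TPM1 (32.5), TAGLN (19.7) and CNN1 (0.544). In HMLE with DMSO at day 2 the order was CALD1 (34.6), TPM1 (27.1), MYL9 (26.4), TPM2 (14.7), ACTA2 (8.46), VIM (2.69), TAGLN (1.55) and CNN1 (0.107). HMLE thus already held CALD1 and TPM1 RNA at levels far above its VIM. CNN1 was listed in 27 libraries and is not given for the 24 duplex libraries. It had 0 to 34 reads per library, so its differences rest on few reads.

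**Figure D1:**
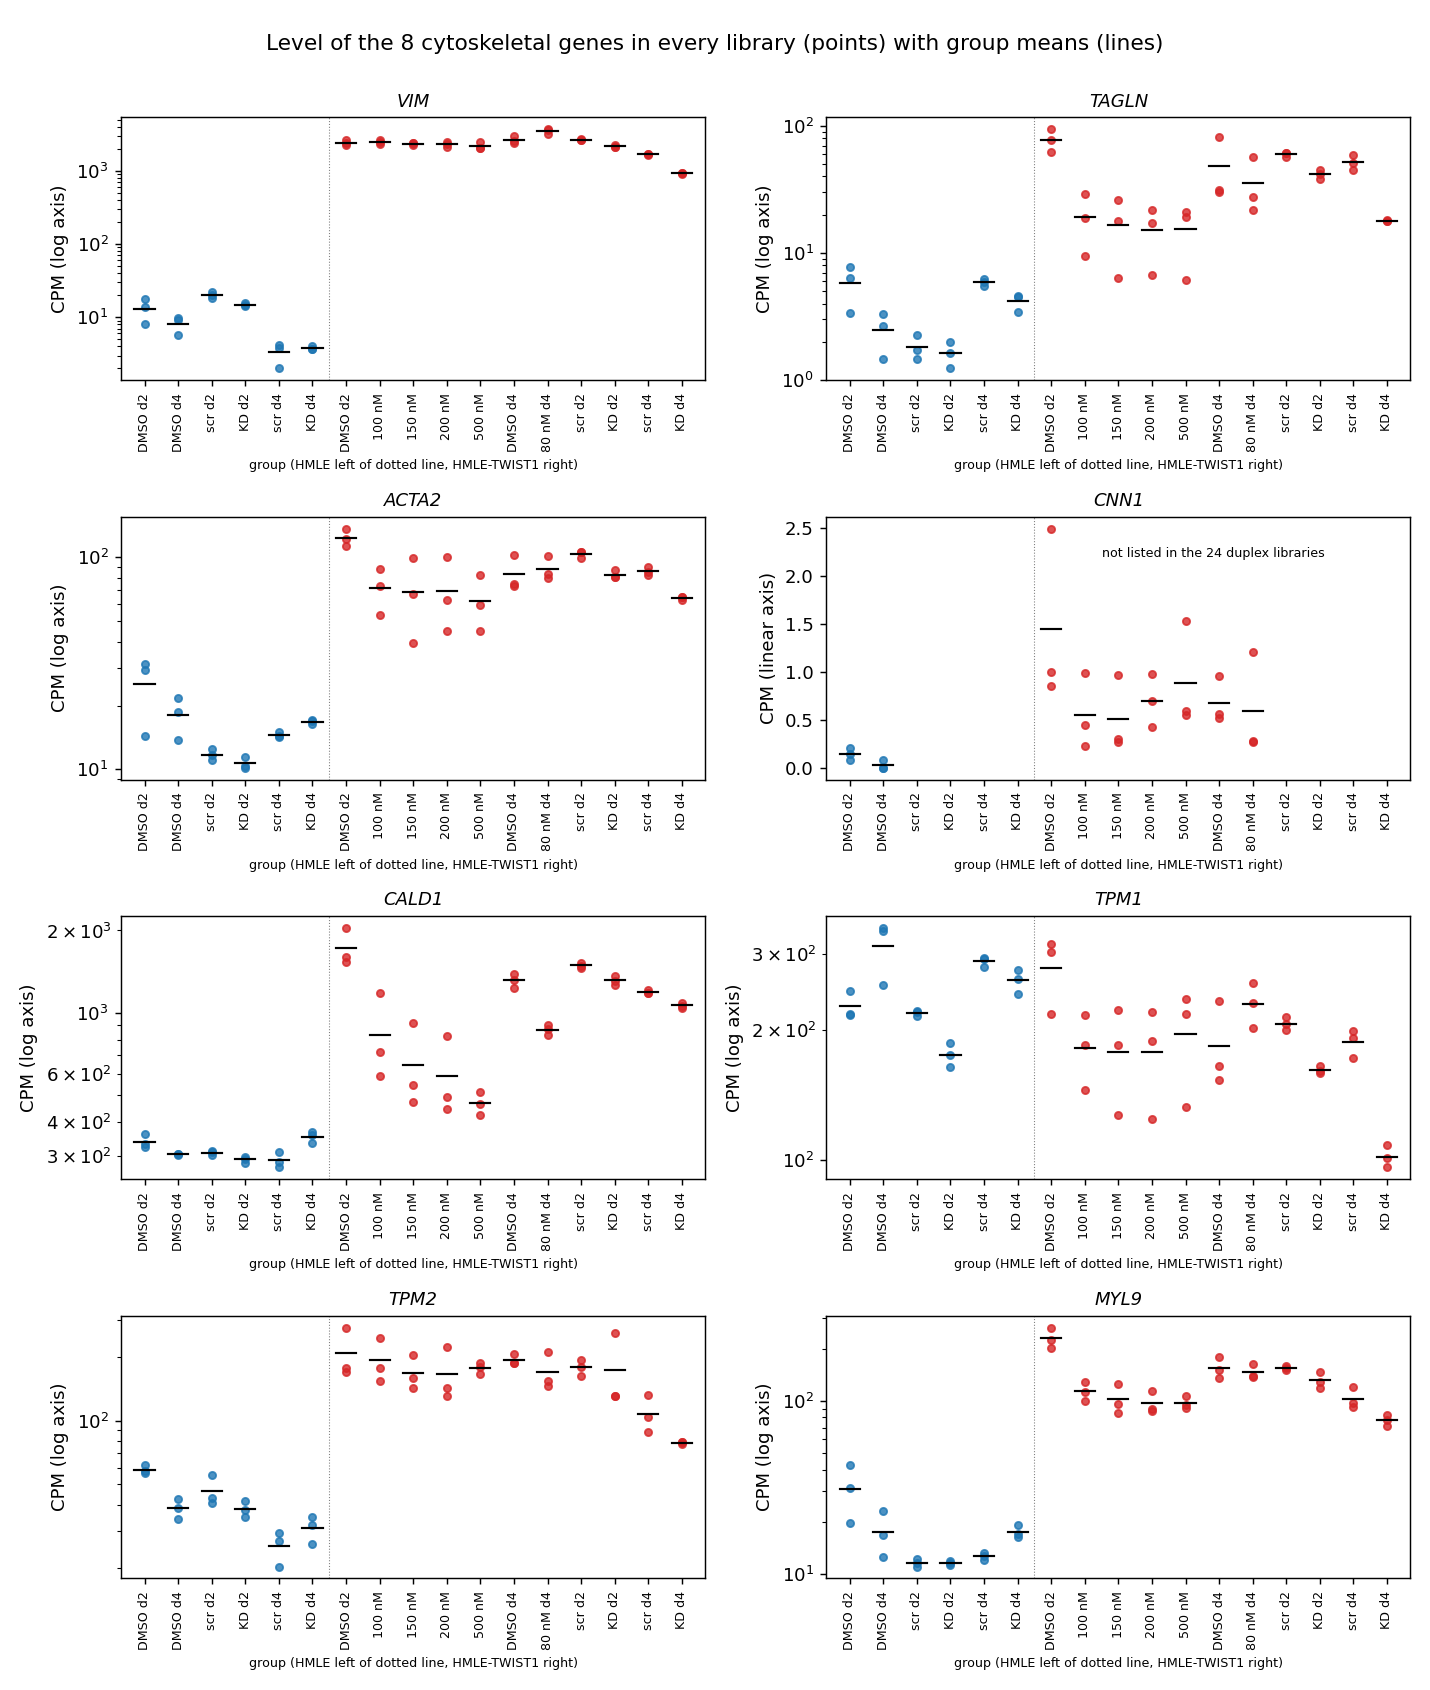
Level in CPM of each gene in every library (points) with the mean of each group of 3 (black lines), HMLE in blue and HMLE-TWIST1 in red; axes are logarithmic except for CNN1. VIM separates the lines in every group, with 2.01 to 22.3 CPM in HMLE and 896 to 3706 CPM in HMLE-TWIST1, while the TPM1 ranges of the lines overlap.

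The first comparison asked how the contractile genes differ between the epithelial and the TWIST1-expressing line. In DMSO at day 2, 7 of 8 members were higher in HMLE-TWIST1 and TPM1 did not pass the test; 24.1% of all tested genes were called higher. The median difference of the members was 2.34, against 0.01 over all genes tested. VIM stood at 8.04, 13.65 and 17.5 CPM in HMLE and at 2450, 2264 and 2627 CPM in HMLE-TWIST1. The groups lay far apart, and the log2 difference was 7.58 ± 0.19 (adjusted p = 7.6e-15). TAGLN stood at 3.36, 7.75 and 6.41 CPM in HMLE and at 62.7, 94.0 and 77.3 CPM in HMLE-TWIST1 (3.74 ± 0.62, adjusted p = 1.3e-04). MYL9 stood at 19.7, 42.5 and 31.1 CPM against 201.1, 264 and 223 CPM (2.92 ± 0.22, adjusted p = 8.4e-09). No library of HMLE reached the lowest library of HMLE-TWIST1 for these genes.

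ACTA2, CALD1 and TPM2 were higher by smaller factors than VIM, TAGLN and MYL9. ACTA2 was at 14.4 to 31.5 CPM in HMLE and 113 to 136 CPM in HMLE-TWIST1 (log2 difference 2.35 ± 0.38, adjusted p = 1.0e-04). CALD1 was at 325 to 360 CPM against 1536 to 2038 CPM (2.32 ± 0.28, adjusted p = 4.3e-06). TPM2 was at 56.6 to 61.5 CPM against 171 to 277 CPM (1.78 ± 0.21, adjusted p = 1.7e-06). For CNN1 the HMLE libraries held 2, 3 and 1 reads and the HMLE-TWIST1 libraries 10, 34 and 11 reads. Its fitted difference was 2.22 ± 0.50 (adjusted p = 0.00135), a value that depends on the prior count at such low reads.

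TPM1 was the exception among the 8. It stood at 217, 246 and 218 CPM in HMLE and at 218, 316 and 302 CPM in HMLE-TWIST1 at day 2, with overlapping groups and a log2 difference of 0.27 ± 0.26 (95% interval -0.30 to 0.83, adjusted p = 0.445). Without the 6 libraries numbered 1 of the day 2 drug experiment the value was 0.39 (adjusted p = 0.0237). In DMSO at day 4 TPM1 was lower in HMLE-TWIST1, at 154, 233 and 165 CPM against 339, 343 and 254 CPM in HMLE (-0.81 ± 0.18, adjusted p = 0.00258). The other 6 members tested at day 4 were higher; over all genes 33.5% were called higher and 33.4% lower. CNN1 at day 4 had 0, 1 and 0 reads in HMLE and 12, 6 and 5 reads in HMLE-TWIST1, and did not reach the read minimum for the test.

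The scramble libraries gave the same comparison in a separately processed part of the table. At day 2, 6 of 7 members were higher in HMLE-TWIST1 (background 35.7%), with TPM1 at -0.04 ± 0.05 (adjusted p = 0.469). At day 4, 6 of 7 were higher (background 37.6%) and TPM1 was lower, at 199, 192 and 173 CPM against 291, 293 and 280 CPM (-0.62 ± 0.07, adjusted p = 1.1e-07; 36.8% of all genes were called lower). VIM gave the widest gap at 8.98 ± 0.21 at day 4, where HMLE held 4.18, 2.01 and 3.83 CPM. TAGLN differed by 4.99 ± 0.16 at day 2 and 3.10 ± 0.13 at day 4, and the levels behind this change are given with the comparison of days.

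**Figure D2:**
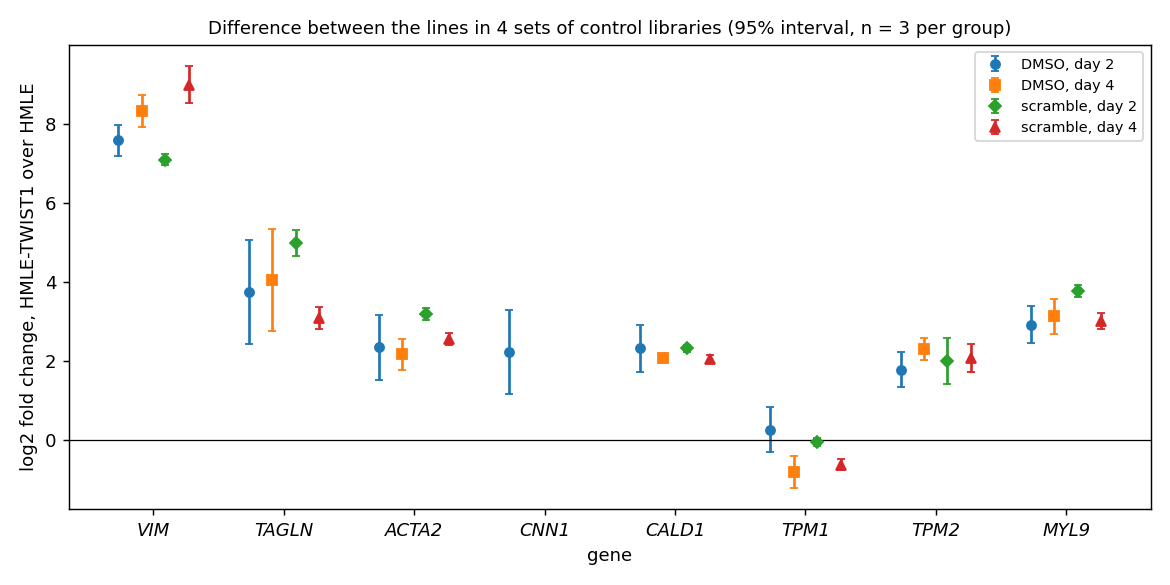
Log2 fold change of HMLE-TWIST1 over HMLE for each gene (points, with 95% intervals from limma, 3 libraries per group) in DMSO and scramble at day 2 and day 4; CNN1 was tested at 1 point only. VIM lies between 7.08 and 8.98, TAGLN, ACTA2, CALD1, TPM2 and MYL9 between 1.78 and 4.99, and TPM1 between -0.81 and 0.27.

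The next comparison asked what 48 h of chaetocin did to these genes in HMLE-TWIST1. TAGLN, CALD1 and MYL9 fell at all 4 doses, ACTA2 passed the test at 500 nM and TPM1 at 200 nM, and VIM, TPM2 and CNN1 at no dose. That makes 3 of 8 members called lower at 100 nM and at 150 nM, and 4 of 8 at 200 nM and at 500 nM, with none called higher. Over all genes 11.8%, 16.5%, 19.1% and 24.7% were called lower at 100, 150, 200 and 500 nM. The median over the members was -0.94, -1.09, -0.88 and -0.84 in that order, against 0.01 or 0.02 over all genes. The dose libraries and the DMSO libraries come from separately processed parts of the table, so treatment and batch cannot be told apart in these 4 comparisons, and all 4 share the same DMSO libraries.

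TAGLN, at 62.7 to 94.0 CPM in DMSO, stood at 9.41, 19.0 and 28.9 CPM at 100 nM and at 6.12, 19.1 and 21.2 CPM at 500 nM. Every dosed library lay below every DMSO library, and the library numbered 1 was the lowest at each of the 4 doses. For 100 nM the log2 change was -2.16 ± 0.62 with an adjusted p of 0.0209, and for 500 nM -2.53 ± 0.62 with 0.00352. Without the 6 libraries numbered 1 the changes were -1.85 (adjusted p = 5.2e-04) and -2.08 (adjusted p = 3.6e-05). At 100 nM the call was lost when DMSO replicate 2 (adjusted p = 0.0657), DMSO replicate 3 (adjusted p = 0.0515) or 100 nM replicate 1 (adjusted p = 0.0967) alone was left out.

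CALD1 fell from 1536, 2038 and 1600 CPM in DMSO to 586, 720 and 1185 CPM at 100 nM and 423, 466 and 515 CPM at 500 nM. Dosed and DMSO libraries did not overlap, and at 500 nM the mean of 468 CPM lay above the 339 CPM of HMLE. The changes were -1.13 ± 0.28 at 100 nM (adjusted p = 0.00983), -1.49 ± 0.28 at 150 nM, -1.63 ± 0.28 at 200 nM and -1.91 ± 0.28 at 500 nM (adjusted p = 5.8e-05). At 100 nM the call did not hold without the 6 libraries numbered 1 (-0.96, adjusted p = 0.0629) or without 100 nM replicate 1 alone (adjusted p = 0.0516). MYL9 fell from 201.1, 264 and 223 CPM to 99.7, 113 and 128 CPM at 100 nM (-1.03 ± 0.22, adjusted p = 0.00338). With 500 nM it stood at 90.3, 107 and 94.2 CPM (-1.27 ± 0.22, adjusted p = 1.9e-04). Its 4 dose groups lay close together and well above HMLE.

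ACTA2 varied widely between libraries of a dose. In DMSO it was at 122, 136 and 113 CPM, at 200 nM at 44.8, 63.2 and 101 CPM, and at 500 nM at 45.0, 59.7 and 82.8 CPM. At each dose the library numbered 1 was lowest and that numbered 3 highest. For 200 nM the change was -0.93 ± 0.38 with an adjusted p of 0.066, and for 500 nM -1.06 ± 0.38 with 0.0317. The 500 nM call was lost without DMSO replicate 1 (adjusted p = 0.0655), DMSO replicate 2 (0.0809), 500 nM replicate 1 (0.12) or 500 nM replicate 2 (0.0722), and with scaling to total reads (0.0646). TPM1 was at 218, 316 and 302 CPM in DMSO and at 125, 189 and 220 CPM at 200 nM (-0.70 ± 0.26, adjusted p = 0.046). That call was lost without DMSO replicate 2 (0.133) or 3 (0.116), without 200 nM replicate 1 (0.213) or 2 (0.0701) and with total reads (0.116). At 500 nM TPM1 changed by -0.57 ± 0.26 (adjusted p = 0.0827). Other fits gained calls. Without the 6 libraries numbered 1 TPM1 passed at 100, 150, 200 and 500 nM (adjusted p = 0.00583, 0.00379, 0.00282 and 0.00942). ACTA2 passed at 100 nM in a fit of the compared groups alone (-0.80, adjusted p = 0.0192), and at 150 and 200 nM with precision weights (-0.98, 0.0384 and -0.95, 0.0393) or without replicate 3 of the dose (-1.29, 0.0239 and -1.25, 0.0248).

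VIM did not pass the test at any dose. At 100 nM it was at 2640, 2497 and 2336 CPM and at 500 nM at 2032, 2057 and 2461 CPM, against 2450, 2264 and 2627 CPM in DMSO. The ranges overlapped at every dose, and the changes were 0.00 ± 0.19 at 100 nM (95% interval -0.39 to 0.40) and -0.20 ± 0.19 at 500 nM (-0.60 to 0.19). TPM2 also overlapped DMSO at each dose, with -0.23 ± 0.21 at 500 nM (-0.67 to 0.21). Without the 6 libraries numbered 1 TPM2 passed at 150 nM (-0.55, adjusted p = 0.0298) and also with 200 nM (-0.70, 0.00762). CNN1 had 6 to 16 reads per library at 500 nM and 10 to 34 in DMSO, and its change of -0.62 ± 0.50 had an interval from -1.69 to 0.44. At 100 nM it changed by -1.17 ± 0.50 (-2.24 to -0.11, adjusted p = 0.102) and at 150 nM by -1.27 ± 0.50 (-2.33 to -0.20, 0.0613). CNN1 passed at 100 nM without replicate 3 of that dose (-1.58, adjusted p = 0.0374). It passed at 150 nM without replicate 2 of that dose (-1.71, 0.0264) and with the replicate block (-1.27, 0.0349). Summed fibroblast markers moved with the dose as well, from 7260 to 9320 CPM in DMSO to 1560 to 3620 CPM at 100 nM and 998 to 1240 CPM at 500 nM, and TWIST1 averaged 549, 450 and 234 CPM in the same groups. The part of either in the falls of TAGLN, CALD1 and MYL9 was not tested.

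**Figure D3:**
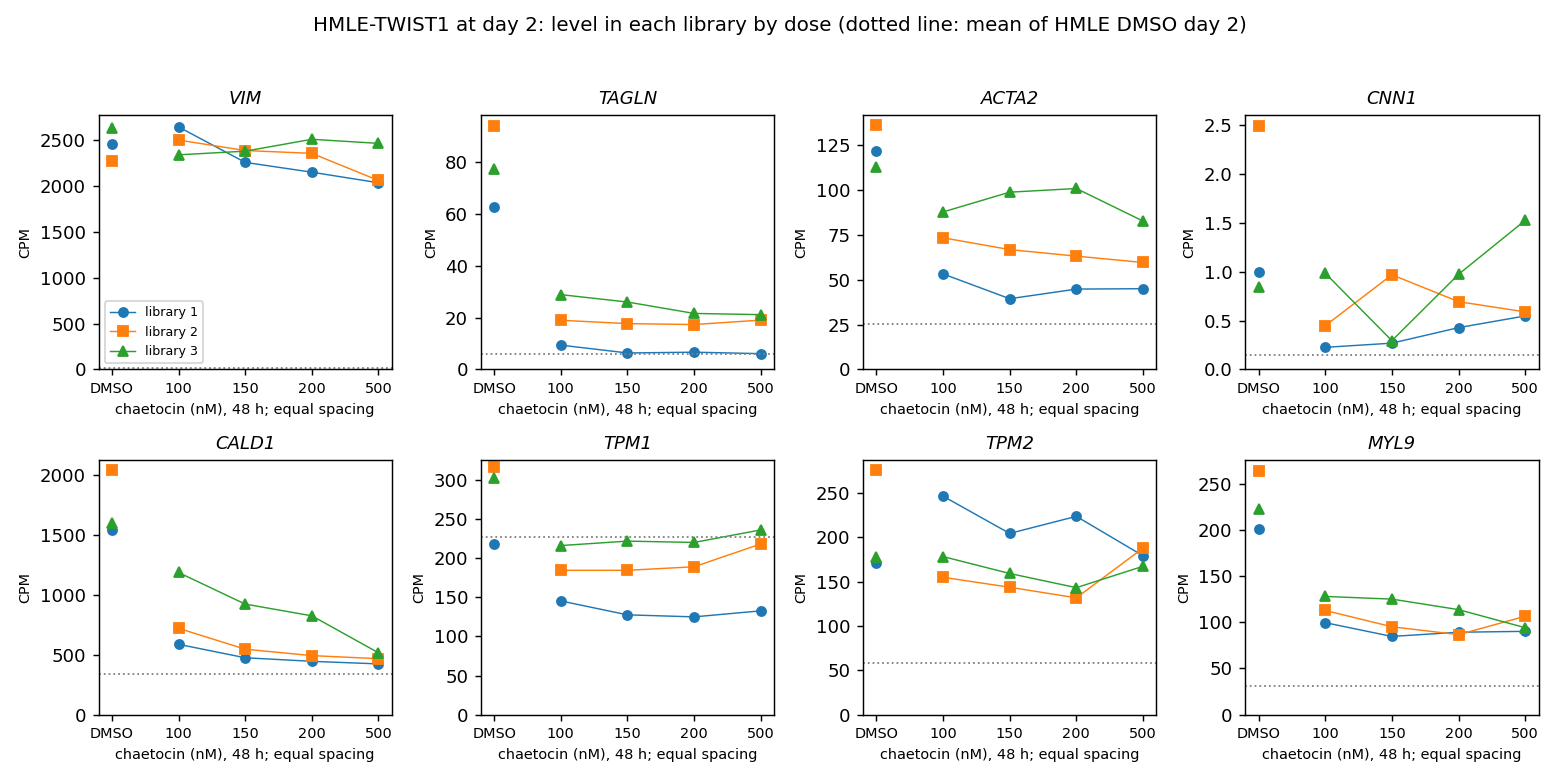
CPM of each gene in each HMLE-TWIST1 library by dose, with the 3 libraries of a dose marked by their label number and joined across the 4 doses, and the mean of HMLE in DMSO as a dotted line. TAGLN, CALD1 and MYL9 lie below DMSO at every dose while VIM lies between 2032 and 2640 CPM at the 4 doses, and library 1 is the lowest of its dose for TAGLN, ACTA2 and TPM1.

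Within the dose libraries, 500 nM was compared with 100 nM, a comparison inside 1 part of the table. None of the 8 members passed, where 16.9% of all genes did. CALD1 came closest, at -0.78 ± 0.28 (95% interval -1.38 to -0.18, adjusted p = 0.0699). Same-numbered libraries deviated together here (correlation 0.30 to 0.59). However, 500 nM replicate 3 followed 100 nM replicate 2 (0.49) more closely than its own number (0.30). Pairing by number is therefore uncertain for replicates 2 and 3. With the replicate number as a block the CALD1 fall passed the test at the same size (-0.78, adjusted p = 0.0137). It also passed without 100 nM replicate 1 (-1.01, adjusted p = 0.034). Over all genes 5994 had an unadjusted p below 0.05, CALD1 among them. In a blocked fit of the dose libraries alone, chosen after seeing the data, CALD1 (-0.78, adjusted p = 8.3e-04) and TAGLN (-0.37, adjusted p = 0.0411) passed. Without the block the interval of the difference held 0 for the members other than CALD1, from -1.69 to 0.96 for TAGLN and from -0.71 to 0.23 for MYL9.

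After 15 h of 80 nM and 48 h without the drug, 1 of 7 tested members was lower than in DMSO, where 17.2% of all genes were called lower. That member was CALD1, at 871, 906 and 829 CPM against 1235, 1389 and 1324 CPM (-0.58 ± 0.06, adjusted p = 6.4e-06). TAGLN was at 27.5, 57.0 and 21.9 CPM against 30.0, 82.5 and 31.5 CPM, with replicate 2 high in both groups (-0.37 ± 0.54, adjusted p = 0.647). MYL9 differed by -0.06 ± 0.20 (adjusted p = 0.843) and ACTA2 by 0.11 ± 0.18 (adjusted p = 0.688). VIM stood at 3247, 3706 and 3645 CPM after washout and 2450, 3049 and 2563 CPM in DMSO, groups that did not overlap. Its change of 0.42 ± 0.18 did not pass (adjusted p = 0.104), but did in a fit of these 2 groups alone (0.41, adjusted p = 0.00274) and with precision weights (0.42, adjusted p = 0.00163). TPM1 passed without DMSO replicate 2 (0.54, adjusted p = 0.0118) and TPM2 without 80 nM replicate 1 (-0.34, adjusted p = 0.0133). With the replicate number as a block, VIM (0.42, adjusted p = 0.0287) and TPM1 (0.36, adjusted p = 0.047) passed. Same-numbered libraries deviated together here for replicates 1 and 2 (correlation 0.41 and 0.42) but not clearly for replicate 3 (0.05). CNN1 had 4, 19 and 3 reads after washout. Summed fibroblast markers were at 2090 to 2910 CPM after washout and 5930 to 7200 CPM in DMSO at day 4. Dose and time both differ from the 48 h groups, so the values stand side by side only.

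The duplex experiment asked what loss of SUV39H1 and SUV39H2 does in each line. In HMLE-TWIST1 all 7 listed members were lower than scramble at day 4, where 19% of all genes were called lower, and 6 of 7 at day 2, where 8.26% were. The median of the members was -0.45 at day 4 and -0.32 at day 2, against 0.00 and -0.01 over all genes. TAGLN fell most, from 59.1, 51.2 and 44.7 CPM to 18.1, 18 and 17.9 CPM at day 4 (-1.52 ± 0.13, adjusted p = 4.9e-08). VIM fell from 1724, 1716 and 1644 CPM to 943, 934 and 896 CPM (-0.89 ± 0.21, adjusted p = 0.00818). TPM1 fell from 199, 192 and 173 CPM to 109, 96.5 and 101 CPM (-0.89 ± 0.07, adjusted p = 6.8e-09), its lowest level in the series. Scramble and knockdown libraries did not overlap for any of the 3 genes.

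ACTA2, TPM2, MYL9 and CALD1 fell by less at day 4. ACTA2 went from 90.2, 82.8 and 85.3 CPM to 65.0, 63.0 and 65.3 CPM (-0.43 ± 0.07, adjusted p = 8.3e-05). MYL9 went from 120, 96.9 and 91.7 CPM to 83.2, 77.4 and 71.9 CPM (-0.41 ± 0.10, adjusted p = 0.00252). CALD1 changed by -0.18 ± 0.05 (adjusted p = 0.0116), a call lost without any single one of the 6 libraries (adjusted p = 0.0761 to 0.153). TPM2 changed by -0.45 ± 0.16 (adjusted p = 0.0455) and lost its call without scramble replicate 1 (-0.26, adjusted p = 0.212), without scramble replicate 2 (0.116) and without any 1 knockdown library (0.13 to 0.141). It also lost it with median-of-ratios scaling (0.0513), total reads (0.0914), no filter (0.067), a fit of the 2 groups alone (0.0703) and the deposited values (0.0522). Summed fibroblast markers were at 4110 to 4220 CPM with knockdown and 3400 to 3810 CPM with scramble at day 4, and TWIST1 averaged 344 and 477 CPM. The part of either in these falls was not tested.

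At day 2 the falls in HMLE-TWIST1 were smaller. VIM was at 2267, 2138 and 2110 CPM against 2740, 2683 and 2635 CPM (-0.32 ± 0.06, adjusted p = 0.00182), and TPM1 at 159, 165 and 161 CPM against 200, 214 and 206 CPM (-0.36 ± 0.05, adjusted p = 4.2e-05). TAGLN changed by -0.53 ± 0.16 (adjusted p = 0.0301), ACTA2 by -0.34 ± 0.07 (0.00327), CALD1 by -0.19 ± 0.04 (0.00411) and MYL9 by -0.25 ± 0.07 (0.0249). The TAGLN call was lost when any single one of the 6 libraries was left out (adjusted p = 0.0517 to 0.117, changes of -0.46 to -0.58). MYL9 lost its call without any 1 scramble library or without knockdown replicate 1 or 2 (0.0694 to 0.172). TPM2 held 1 knockdown library far from the other two, 131, 131 and 261 CPM against 163, 181 and 194 CPM, and changed by -0.13 ± 0.26 (adjusted p = 0.827). Without that library, knockdown replicate 3, it changed by -0.45 (adjusted p = 0.0301). Summed fibroblast markers were at 6510 to 6910 CPM with knockdown and 7490 to 7790 CPM with scramble at day 2, and TWIST1 averaged 438 and 609 CPM. Their part was not tested.

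In HMLE at day 2 VIM and TPM1, 2 of 7 members, were lower than scramble, where 14.7% of all genes were. VIM went from 18.4, 22.3 and 20.4 CPM to 14.8, 15.9 and 14.2 CPM (-0.41 ± 0.06, adjusted p = 9.8e-05), and TPM1 from 216, 220 and 222 CPM to 164, 175 and 186 CPM (-0.29 ± 0.05, adjusted p = 1.8e-04). Summed basal markers were at 11900 to 12400 CPM with scramble and 7000 to 7590 CPM with knockdown in these groups, and their part was not tested. At day 4 CALD1 and MYL9 were higher (background 11.7%) and TAGLN lower (background 14.4%). CALD1 went from 311, 274 and 285 CPM to 334, 367 and 358 CPM (0.27 ± 0.05, adjusted p = 8.1e-04), and MYL9 from 13.1, 11.96 and 12.7 CPM to 17.01, 16.4 and 19.2 CPM (0.46 ± 0.10, adjusted p = 0.00183). TAGLN, at 5.89, 6.20 and 5.52 CPM in scramble and 4.61, 4.496 and 3.44 CPM in knockdown, changed by -0.50 ± 0.13 (adjusted p = 0.0082). That call was lost in a fit of these 2 groups alone (-0.47, adjusted p = 0.0798) and with precision weights (-0.51, adjusted p = 0.108). ACTA2 was just short of the threshold (0.19 ± 0.07, adjusted p = 0.0516). It passed with median-of-ratios scaling (0.20, adjusted p = 0.0383), total reads (0.23, 0.0291) and no filter (0.21, 0.0334). It also passed with a prior count of 0.5 (0.19, 0.0462) and with the deposited values (0.19, 0.0194). TPM1 passed without knockdown replicate 2 (-0.21, adjusted p = 0.0451).

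The difference of the knockdown effect between the lines was tested directly, without regard to how far the targets fell in each line. At day 4 it was lower in HMLE-TWIST1 for all 7 members, where 10.7% of all genes were, with a median of -0.73. TPM1 (-0.73 ± 0.09, adjusted p = 2.4e-05), MYL9 (-0.87 ± 0.14, adjusted p = 2.0e-04), ACTA2 (-0.62 ± 0.10, adjusted p = 2.0e-04), CALD1 (-0.45 ± 0.07, adjusted p = 2.9e-04) and TAGLN (-1.02 ± 0.18, adjusted p = 6.2e-04) kept the call in all 19 alternative fits. VIM differed by -1.11 ± 0.30 (adjusted p = 0.0251) and TPM2 by -0.72 ± 0.23 (adjusted p = 0.04). HMLE held only 23 to 44 VIM reads per library here. The VIM call was lost without scramble replicate 1 or 2 of HMLE-TWIST1, or without any single knockdown library of either line (adjusted p = 0.0502 to 0.0581). TPM2 lost its call in 9 of the 12 fits that left out 1 library (0.0646 to 0.0878), and with total reads (0.0547). At day 2 none of the 7 members passed, where 12.2% of all genes did, and the widest interval ran from -0.72 to 0.95 (TPM2). At an unadjusted p below 0.05, 3 of the 7 passed at day 2, as did 4677 of all 17888 genes. MYL9 passed after adjustment without knockdown replicate 3 of HMLE-TWIST1 (-0.33, adjusted p = 0.0423).

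**Figure D4:**
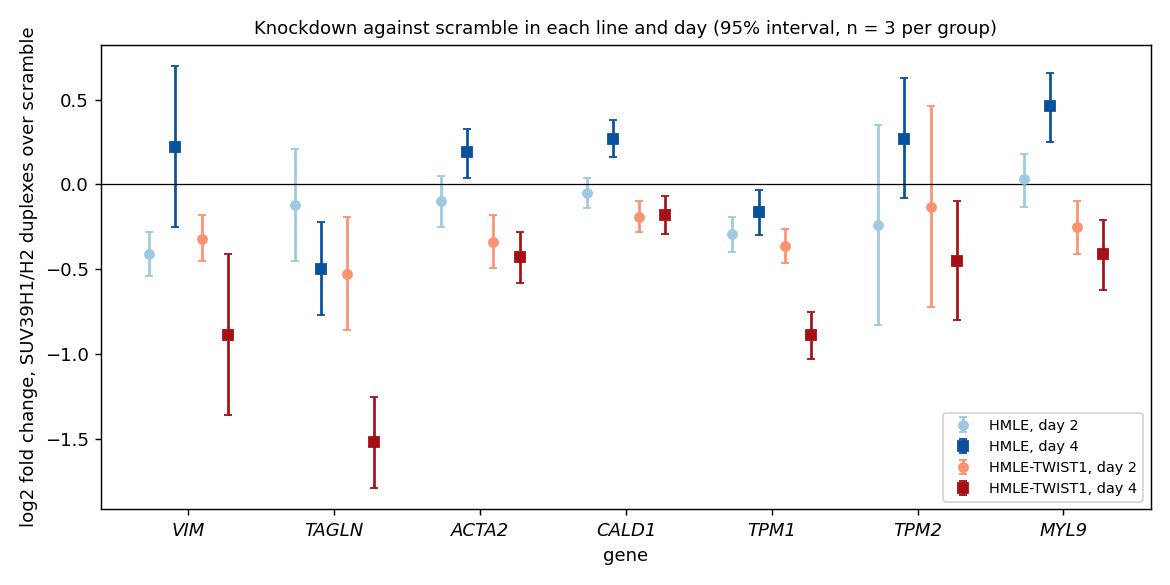
Log2 fold change of SUV39H1/H2 duplexes over scramble (points, with 95% intervals from limma, 3 libraries per group) for each listed gene, in HMLE (blue) and HMLE-TWIST1 (red) at day 2 and day 4. At day 4 the HMLE-TWIST1 values run from -1.52 for TAGLN to -0.18 for CALD1, and those of HMLE from -0.50 for TAGLN to 0.46 for MYL9.

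The change of the knockdown effect from day 2 to day 4 was tested within each line. In HMLE-TWIST1 it deepened for TAGLN (-0.98 ± 0.21, adjusted p = 8.9e-04) and TPM1 (-0.52 ± 0.08, adjusted p = 1.2e-05), 2 of 7 members, where 9.1% of all genes were called lower. VIM went the same way at -0.56 ± 0.23 and did not pass (adjusted p = 0.103), but did in a fit of the compared groups alone (-0.59, adjusted p = 1.2e-08). CALD1 showed no such change, at 0.02 ± 0.06 (95% interval -0.11 to 0.15). In HMLE, ACTA2 (0.28 ± 0.09, adjusted p = 0.0322), CALD1 (0.31 ± 0.06, adjusted p = 0.00101) and MYL9 (0.42 ± 0.12, adjusted p = 0.0161) moved up, 3 of 7 where 8.07% of all genes were called higher. The ACTA2 and MYL9 calls were lost in a fit of the compared groups alone (adjusted p = 0.202 and 0.0542) and with precision weights (0.124 and 0.188), and that of ACTA2 without scramble day 2 replicate 2 (0.0834), knockdown day 2 replicate 1 (0.0811) or scramble day 4 replicate 2 (0.0537). VIM in HMLE did not pass (0.62 ± 0.23, adjusted p = 0.0745), but did without scramble day 4 replicate 1 (0.87, adjusted p = 0.00782), 2 (0.31, 0.0124) or 3 (0.81, 0.0287).

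Control cells also drifted between the days. In HMLE with scramble, TAGLN, ACTA2 and TPM1 were higher at day 4 (background 21.7%) and VIM and TPM2 lower (background 20.6%). VIM dropped from 18.4, 22.3 and 20.4 CPM to 4.18, 2.01 and 3.83 CPM (-2.61 ± 0.16, adjusted p = 3.5e-10), while TAGLN went up from 1.47, 2.26 and 1.72 CPM to 5.89, 6.20 and 5.52 CPM (1.62 ± 0.15, adjusted p = 6.6e-10). TPM1 went up by 0.39 ± 0.06 (adjusted p = 1.5e-06). ACTA2 went up by 0.31 ± 0.06 (adjusted p = 3.5e-04), a call lost with total reads (0.15, adjusted p = 0.0899) and in a fit of the 2 groups alone (0.28, adjusted p = 0.0651). TPM2 fell by 0.87 on the log2 scale (SE 0.23, adjusted p = 0.00489). CALD1 did not pass (-0.10 ± 0.05, adjusted p = 0.0924), but did with total reads (-0.25, adjusted p = 2.0e-05) and without day 4 replicate 1 (-0.15, adjusted p = 0.0141). Summed basal markers were at 11900 to 12400 CPM at day 2 and 7050 to 8130 CPM at day 4. Of these the keratin KRT5 averaged 6800 and 2440 CPM. Summed luminal markers were at 1050 to 1180 CPM at day 2 and 961 to 1090 CPM at day 4. Among them MUC1 (93.5 and 19.5 CPM), KRT8, KRT19 and EPCAM averaged lower at day 4. CDH1 (697 and 763 CPM) and KRT18 (52.8 and 62.2 CPM) averaged higher. Their part was not tested.

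In HMLE-TWIST1 with scramble, 6 of 7 members were lower at day 4 (background 15.4%), and TAGLN did not pass (-0.22 ± 0.15, adjusted p = 0.285). VIM changed by -0.67 ± 0.16 (adjusted p = 0.00438), MYL9 by -0.61 ± 0.09 (3.3e-06), CALD1 by -0.32 ± 0.05 (2.6e-06) and ACTA2 by -0.28 ± 0.06 (0.00137). TPM2 changed by -0.75 ± 0.23 (0.0183), a call lost without day 2 replicate 3 (0.0623) or day 4 replicate 2 (0.0528) or 3 (0.0872). TPM1 was close to the threshold (-0.15 ± 0.06, adjusted p = 0.0476), and its call was lost without any 1 library but day 4 replicate 1 (0.0554 to 0.297) and with other scalings. Summed fibroblast markers were at 7490 to 7790 CPM at day 2 and 3400 to 3810 CPM at day 4 in the same scramble groups, and their part was not tested.

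In DMSO fewer members passed between the days, although the median change of 8 members was -0.61 in HMLE and -0.57 in HMLE-TWIST1. In scramble, where CNN1 is not given, the median of 7 members was 0.11 and -0.32. Day 4 was 15 h and then 48 h in the DMSO cells, and 48 h and then 48 h in the scramble cells. The difference between the experiments was not tested. In HMLE, TPM2 alone of 8 members passed, at 42.4, 34.3 and 38.6 CPM at day 4 against 56.6, 57.8 and 61.5 CPM at day 2 (-0.59 ± 0.15, adjusted p = 0.00679), where 15.4% of all genes were called lower. Without day 2 replicate 1, in which VIM, TAGLN, ACTA2 and MYL9 were each the lowest of their group, 5 of 8 members were called, and 6052 of all genes in either direction, against 6366 with that library. In HMLE-TWIST1 none of 8 members passed, and 0.345% of all genes did, 61 in number against 2265 at an unadjusted p below 0.05. CALD1 (-0.38 ± 0.09, adjusted p = 0.0669) passed without day 2 replicate 1 (-0.46, adjusted p = 0.0354), and TPM1 (-0.61 ± 0.18, adjusted p = 0.187) without day 4 replicate 2 (-0.79, adjusted p = 0.0448).

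The members followed each other closely over all 17 groups, TPM1 apart. Pearson's r of group-mean log2 CPM was 0.99 for ACTA2 with MYL9, 0.97 for VIM with TPM2 and 0.95 for TAGLN with CALD1, while TPM1 gave -0.51 with VIM and -0.25 to -0.37 with the others. These values describe 17 groups that share lines, libraries of a model and scaling, and mostly trace the split between the lines. Within the 11 HMLE-TWIST1 groups the picture changed. TAGLN kept company with ACTA2 (0.95) and CALD1 (0.91), VIM with TPM2 (0.88) and TPM1 (0.80), and VIM with CALD1 stood at -0.04. Of genes other than the 8 with a mean log2 CPM of at least 3, those most like each member over the 17 groups were RASA3, DCN and TRAM2 for VIM (0.994, 0.993 and 0.992), FN1 for TAGLN (0.985), ITGBL1 for ACTA2 (0.989), KIRREL for CALD1 (0.991), TLN1 for TPM2 (0.984), VCAN for MYL9 (0.99) and SLC9A7 for TPM1 (0.807). Over the 11 HMLE-TWIST1 groups they were GLTP for VIM (0.952), CORO1B for TAGLN (0.977), MXRA7 for ACTA2 (0.942), TXNDC15 for CALD1 (0.995), NDUFB10 for TPM2 (0.974), DPYSL3 for MYL9 (0.951) and MYH9, a non-muscle myosin heavy chain, for TPM1 (0.944).

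Genes that work with the members were read from 4 lists. Of other contractile genes (non-muscle actins, myosins and further calponins and tropomyosins), 9 of 18 tested were higher and none lower in HMLE-TWIST1 with DMSO at day 2, with a median of 0.31. Over all 18801 genes tested 4535, or 24.1%, were higher and 4371 lower. TPM4 (0.95 ± 0.10), the myosin light chain kinase gene MYLK (1.40 ± 0.15) and CNN3 (1.16 ± 0.14) had the smallest p-values, and LMOD1, named above after its values were seen, differed more. Of actin crosslinkers and adhesion proteins 14 of 19 were higher and 4 lower, among them the filamin gene FLNC (5.31 ± 0.29) and the focal adhesion genes PARVA (2.42 ± 0.14) and FERMT2 (2.11 ± 0.13). Of 11 tested genes of the SRF axis 5 were higher and 1 lower, with FHL1 (6.66 ± 0.17) and CYR61 (4.12 ± 0.43) far up. Of intermediate filament genes 2 of 13 were higher and 8 lower, and the basal keratin KRT5 differed by -10.71 ± 0.32. All genes named here but LMOD1 had adjusted p of 1.7e-06 or smaller. In DMSO at day 4, 7 of 18 other contractile genes were higher and 4 lower, where 33.5% and 33.4% of all genes were. With scramble at day 2, 12 of 18 were higher and 6 lower, where 6390 of 17888 genes were higher and 5957 lower. With scramble at day 4, 7 of 19 were higher and 8 lower, where 37.6% and 36.8% of all genes were. The SRF axis had 5 of 11 higher and 4, 4 and 5 lower in that order. Crosslinkers had 15, 15 and 14 of 19 higher and 3, 3 and 5 lower.

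At 500 nM chaetocin 11 of 18 other contractile genes and 11 of 19 crosslinker and adhesion genes were lower, with 3 and 1 higher, where 24.7% of all genes were lower and 4889 of 18801 higher. The SRF axis had 2 of 11 higher and 3 lower, near those shares, and intermediate filaments 2 of 13 higher and 5 lower. Cytoplasmic actin ACTB fell by 0.89 (SE 0.10, adjusted p = 2.4e-06) and the myosin gene MYH10 by 1.05 (SE 0.13, adjusted p = 7.3e-06) on the log2 scale. The SRF cofactor genes MKL2 (-1.42 ± 0.13, adjusted p = 5.4e-07) and MKL1 (-0.85 ± 0.11, adjusted p = 1.3e-05) were lower, and FHL2 was higher (1.53 ± 0.21, adjusted p = 2.3e-05). After washout 4 of 18 contractile genes were higher and 3 lower, and 8 of 13 intermediate filament genes were higher with none lower, KRT18 by 1.58 ± 0.09 (adjusted p = 6.4e-08). Over all 17585 genes 3413 were higher and 17.2% lower, so the contractile counts lay near the background. In the SRF axis 3 of 11 genes were higher and 3 lower after washout. FHL2 was higher (0.89, adjusted p = 9.6e-05), and MKL2 (-0.48 ± 0.07, adjusted p = 1.2e-04) and MKL1 (-0.42, adjusted p = 0.00351) were lower.

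With knockdown at day 4 in HMLE-TWIST1, 13 of 19 crosslinker and adhesion genes and 6 of 19 other contractile genes were lower, with 2 and 2 higher, where 19% of all genes were lower and 3422 of 17985 higher. LPP (-0.96 ± 0.06, adjusted p = 7.2e-10), the filamin gene FLNA (-0.79 ± 0.06, adjusted p = 1.6e-08) and MYH9 (-0.70 ± 0.07, adjusted p = 4.4e-07) were among them. In the SRF axis 5 of 11 were lower and 2 higher, with CYR61 at -1.04 ± 0.08 (adjusted p = 7.3e-09) and CTGF at -0.78 ± 0.13 (adjusted p = 9.1e-05), both matricellular genes. In HMLE with knockdown at day 4, crosslinker and adhesion genes were split evenly, with 4 of 19 higher and 4 lower. ACTN1 was higher (0.48 ± 0.06, adjusted p = 9.4e-06), and PARVA (-0.46, adjusted p = 1.7e-04) and CSRP1 (-0.42, adjusted p = 0.00161) were lower. In the SRF axis 4 of 11 were higher and 2 lower, with CTGF higher (0.51 ± 0.13, adjusted p = 0.0063). In that comparison 11.7% of all genes were higher and 14.4% lower.

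Some members share genomic sequence with genes on the opposite strand in GENCODE 29. VIM overlaps VIM-AS1, TAGLN overlaps PCSK7, ACTA2 overlaps FAS and ACTA2-AS1, and TPM1 overlaps TPM1-AS. The strand setting of the counting is not given in the sources used here, so reads of these pairs may not be fully separated. VIM-AS1 averaged 28.2 CPM in HMLE-TWIST1 and 0.421 CPM in HMLE with DMSO at day 2.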

How the data were processed

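The deposited table holds log2 RPKM for gene symbols, made by the authors in 3 separately filtered and scaled parts of 15, 24 and 12 libraries. Per the submitters' processing notes, reads were aligned with STAR to hg19 (GRCh37) and counted with HTSeq. Versions and options are not given in the sources used here. Per the labels' protocols, ribosomal RNA was removed before stranded libraries were prepared from total RNA. Another deposited table with 81 unnamed columns was not used. Whole reads were recovered from the steps of the log2 values (100.0% of values within 0.001 reads of a whole number, largest distance 4.2e-08). Library sizes were corrected by trimmed means (30% of log ratios, 5% of levels), and reads were converted to log2 CPM with a prior count of 2 and tested two-sided with limma 3.58.1 (R 4.3.3, intensity trend, robust moderation) in group-means models of 9 to 24 libraries. Genes needed the equivalent of 10 reads in 3 libraries and 15 reads in all. CNN1 is not listed in the duplex part. The fit was tested on simulated data. It missed a first criterion, set on the recovery of 2-fold changes, which was then replaced by criteria on bias, sign, false calls and larger changes. Changes of that size can therefore be missed.

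Members and lists were chosen with earlier results of these data known. Named genes are the 8 members in all 22 comparisons, up to 3 genes with the smallest adjusted p per list in 5 comparisons, and the genes most like each member by Pearson's r. A further list of genes is not reported here. Same-numbered libraries deviated together (every r over 0.1) for the lines in DMSO (0.14 to 0.18 at day 2, 0.11 to 0.19 at day 4) and for 500 against 100 nM (0.30 to 0.59). In the latter, 500 nM replicate 3 was closer to 100 nM replicate 2 (0.49) than to its own number (0.30). The source of the numbers is the sample titles. Alternatives were other scalings, no filter, a prior count of 0.5, precision weights (voom), a replicate block, smaller fits, the deposited values and each library left out. Further alternatives, the dose libraries alone with a block and the day 2 drug model without the libraries numbered 1, were chosen after seeing the data.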

Additional observations from a re-analysis of the deposited data

Results flagged for a closer look

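The effect of SUV39H1/H2 knockdown differed between HMLE-TWIST1 and HMLE at day 4, by a test of the difference itself, for VIM (-1.11), TAGLN (-1.02), ACTA2 (-0.62), CALD1 (-0.45), TPM1 (-0.73), TPM2 (-0.72) and MYL9 (-0.87), all on the log2 scale and lower in HMLE-TWIST1. The effect differed between day 4 and day 2 in HMLE for ACTA2 (0.28), CALD1 (0.31) and MYL9 (0.42), and in HMLE-TWIST1 for TAGLN (-0.98) and TPM1 (-0.52). Groups of 3 libraries are too small for the check for a single stray library.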

How the results depend on the processing

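Of 162 member changes 84 passed the test, and 68 of those passed in every alternative fit. In 2441 alternative fits 88 calls were lost, 77 gained and 0 reversed. The cause was not tested. With precision weights the members called were 5 in place of 3 at 150 nM, 2 in place of 1 after washout, 1 in place of 3 for the day difference of the knockdown in HMLE and 3 in place of 1 between DMSO days in HMLE, and all genes called between DMSO days in HMLE-TWIST1 were 114 in place of 61. With the replicate block the members called were 5 at 100 nM, 6 at 150 nM, 1 for 500 against 100 nM and 3 after washout. They were 5 between DMSO days in HMLE and 1 in HMLE-TWIST1 (162 of all genes). All genes called with the block were 5870 in place of 4452 at 100 nM and 7742 in place of 6451 at 150 nM. They were 4608 in place of 3186 for 500 against 100 nM, 7220 in place of 6443 after washout and 6480 in place of 6366 between DMSO days in HMLE. Of these comparisons, same-numbered libraries all deviated together only for 500 against 100 nM, where replicates 2 and 3 were not clearly paired. Where same-numbered libraries deviated together the block changed no other member's call. In fits of the compared groups alone the members called were 2 after washout, 1 for the day difference in HMLE and 4 between DMSO days in HMLE. There 609 of all genes, in place of 3186, passed for 500 against 100 nM. The deposited values gave 1306 there, 3 members between DMSO days in HMLE and 1 of all genes in HMLE-TWIST1. Total reads gave 3 members between DMSO days in HMLE. The dose libraries alone with a block, chosen after seeing the data, gave 6139 genes and 2 members (CALD1, and TAGLN at -0.37, adjusted p = 0.0411). Without the 6 libraries numbered 1, also chosen after seeing the data, 5 members passed at 150 nM. Leaving out 1 library gave 919 to 3435 genes and 0 to 1 members for 500 against 100 nM, the lowest without 500 nM replicate 2, and 3 to 181 genes and 0 to 1 members between DMSO days in HMLE-TWIST1, the lowest without day 4 replicate 3 and the highest without day 4 replicate 2. It gave 1 to 4 members at 100 nM, 3 to 5 at 150 nM, 1 to 2 after washout, 4 to 6 for knockdown in HMLE-TWIST1 at day 2 and 5 to 6 at day 4, 0 to 1 for the line difference of the knockdown at day 2 and 5 to 7 at day 4, 2 to 4 for the day difference in HMLE, 4 to 6 between scramble days in HMLE-TWIST1 and 1 to 5 between DMSO days in HMLE. The planned edgeR test was not run. Low reads limit CNN1 throughout and VIM and TAGLN in HMLE.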
